A study of Mus musculus with 2 samples.

Results

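Many dual specificity phosphatases remove phosphate from both the threonine and the tyrosine of the activation loop of MAP kinases and so switch these kinases off. Several of their genes are themselves induced by MAP kinase signals, which makes them feedback brakes on T cell activation. The family holds inducible nuclear enzymes, cytoplasmic enzymes that act mainly on ERK, enzymes that prefer JNK and p38, and small atypical members without the kinase-binding domain.

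Chromatin accessibility around 10 of these genes (Dusp1, Dusp2, Dusp4, Dusp5, Dusp6, Dusp7, Dusp8, Dusp10, Dusp16 and Dusp22) was described from ATAC-seq of T helper 2 (Th2) cells, the CD4 T cells that make type 2 cytokines. The assay reads accessible DNA through the insertion of adapters by a transposase. The genes were chosen by name, 10 of 21938 protein-coding genes of the GENCODE M21 basic annotation, and every region centred in a gene or within 50 kb of its ends was taken. The series has 1 group, primary Th2 cells of C57BL/6NJ mice, with 2 biological replicates that share 1 donor record and differ in biosample. Age was unknown and sex not collected per the labels, and no untreated, naive or other T cell group was analysed here, so no result below can be called specific to Th2 cells. The labels point to a protocol for differentiating CD4 T cells, whose steps no source used here gives. Whether the replicates came from different animals is not stated, and the spread between them may be technical.

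Regions of the 2 lists that overlapped by 1 bp or more were joined, and a region was called open when both replicates held it. The 10 windows held 150 of 67027 joined regions. Of these, 113 (75.3%) were open in both replicates, 9 were found in replicate 1 alone and 28 in replicate 2 alone, against 65.7% of all joined regions open in both. The value of each region is the authors' fold enrichment of its summit over background, given for replicate 1 and then replicate 2. The names of the deposited regions hold the words ASTARR and insert, which no source used here explains, and whether the fragments were cloned before sequencing is not stated. The summit pileup, the count behind that value, was recovered from the deposited fold and p-value and ranged in the windows between 10 and 234 in replicate 1 and between 10 and 338 in replicate 2. Intervals in brackets are 95% exact Poisson intervals of that count on the fold scale, and cover counting error only. Strong and weak below refer to the fold. The background recovered with each count differed between regions, so a lower fold can go with a higher count. At the promoters of the 10 genes the background was between 5.844 (Dusp22) and 25.81 (Dusp2) in replicate 1. In replicate 2 it was between 7.185 (Dusp8) and 32.25 (Dusp2). In the same lists 4 of 4 T cell marker genes (Cd3e, Cd3g, Cd4, Cd28) and 4 of 4 Th2 marker genes (Gata3, Il4, Il5, Il13) had an open promoter. None of 9 marker genes of CD8 T, B, myeloid, natural killer and mast cells and basophils (Cd8a, Cd79a, Pax5, Lyz2, Csf1r, Itgam, Ncr1, Cpa3, Mcpt8) had one.

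Promoter sequences of 9 of the 10 genes were matched in a RefSeq table of GRCm38.p6, which holds 250 bases before and 50 after each start; Dusp4 is named only. The 3 below are shown because they hold the rarer matches found, those to a cyclic AMP response element (CRE, TGACGTCA) and to the CArG box, the element read by serum response factor. They are printed 5′ to 3′ on the strand of the gene, up to the first RefSeq or annotated start within the 250 and 50 bases. Dusp1 and Dusp8 also have an annotated start farther upstream. That of Dusp8, at 142095843, is in the comprehensive annotation but not the basic set. Capitals mark matches to CRE, the CArG box, the E-box (CACGTG) and the SP/KLF box (GGGCGG), on either strand.

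Dusp1, chr17:26508520-26508722, minus strand: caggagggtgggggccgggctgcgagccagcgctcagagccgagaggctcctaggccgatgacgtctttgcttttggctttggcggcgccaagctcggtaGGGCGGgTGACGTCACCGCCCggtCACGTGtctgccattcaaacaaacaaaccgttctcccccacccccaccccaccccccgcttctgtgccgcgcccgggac

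Dusp5, chr19:53528895-53529108, plus strand: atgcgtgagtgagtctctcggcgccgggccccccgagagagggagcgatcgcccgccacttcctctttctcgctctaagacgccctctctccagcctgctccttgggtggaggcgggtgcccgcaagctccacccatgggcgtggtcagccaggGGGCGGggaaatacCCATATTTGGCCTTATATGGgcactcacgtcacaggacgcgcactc

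Dusp8, chr7:142095285-142095534, minus strand: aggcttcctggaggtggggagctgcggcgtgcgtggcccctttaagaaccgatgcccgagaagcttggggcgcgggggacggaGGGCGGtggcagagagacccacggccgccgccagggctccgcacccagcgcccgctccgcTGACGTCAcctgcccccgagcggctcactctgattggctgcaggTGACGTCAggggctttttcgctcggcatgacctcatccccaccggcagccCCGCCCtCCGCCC

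Counted from the RefSeq start, the CRE match of Dusp1 lay at -143 to -136, with SP/KLF matches on both sides of it. Dusp8 had a pair of CRE matches, at -107 to -100 and at -63 to -56. Dusp5 had a pair of CArG boxes that touched, CCATATTTGG at -82 to -73 and CCTTATATGG at -72 to -63. The CRE was found in 2 of the 9 promoters, against 3.10% of 12571 promoters in the table whose gene had an open promoter, and the CArG box in 1 of 9, against 1.22%. The SP/KLF box was found in 8 of 9, against 63.7%, and the E-box in 2 of 9, Dusp1 and Dusp2, against 9.93%. An ETS match (CCGGAA) was in none of the 9, against 27.1%, and AP-1 matches (TGANTCA) were in none, against 4.88%. All 9 were rich in CpG, with a ratio of observed to expected CpG between 0.713 and 1.05 and a median of 0.855, against a median of 0.758 in promoters of genes open in both replicates. These matches are letters in a window and show no binding.

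The promoter was open in both replicates at all 10 phosphatase genes, against 57.3% of 21938 protein-coding genes. The promoter count here is of regions centred within 1 kb of an annotated start of a protein-coding transcript. The fold enrichments were moderate. The median over the 10 genes was 7.96 in replicate 1 and 9.22 in replicate 2, against 9.68 and 10.9 over the 12569 genes with an open promoter. Only Dusp5 and Dusp10 lay above the median open promoter in their mean over replicates. The regions were also fairly wide, with a median width of 1493 bp against 1193 bp at open promoters of all genes.

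**Figure D1:**
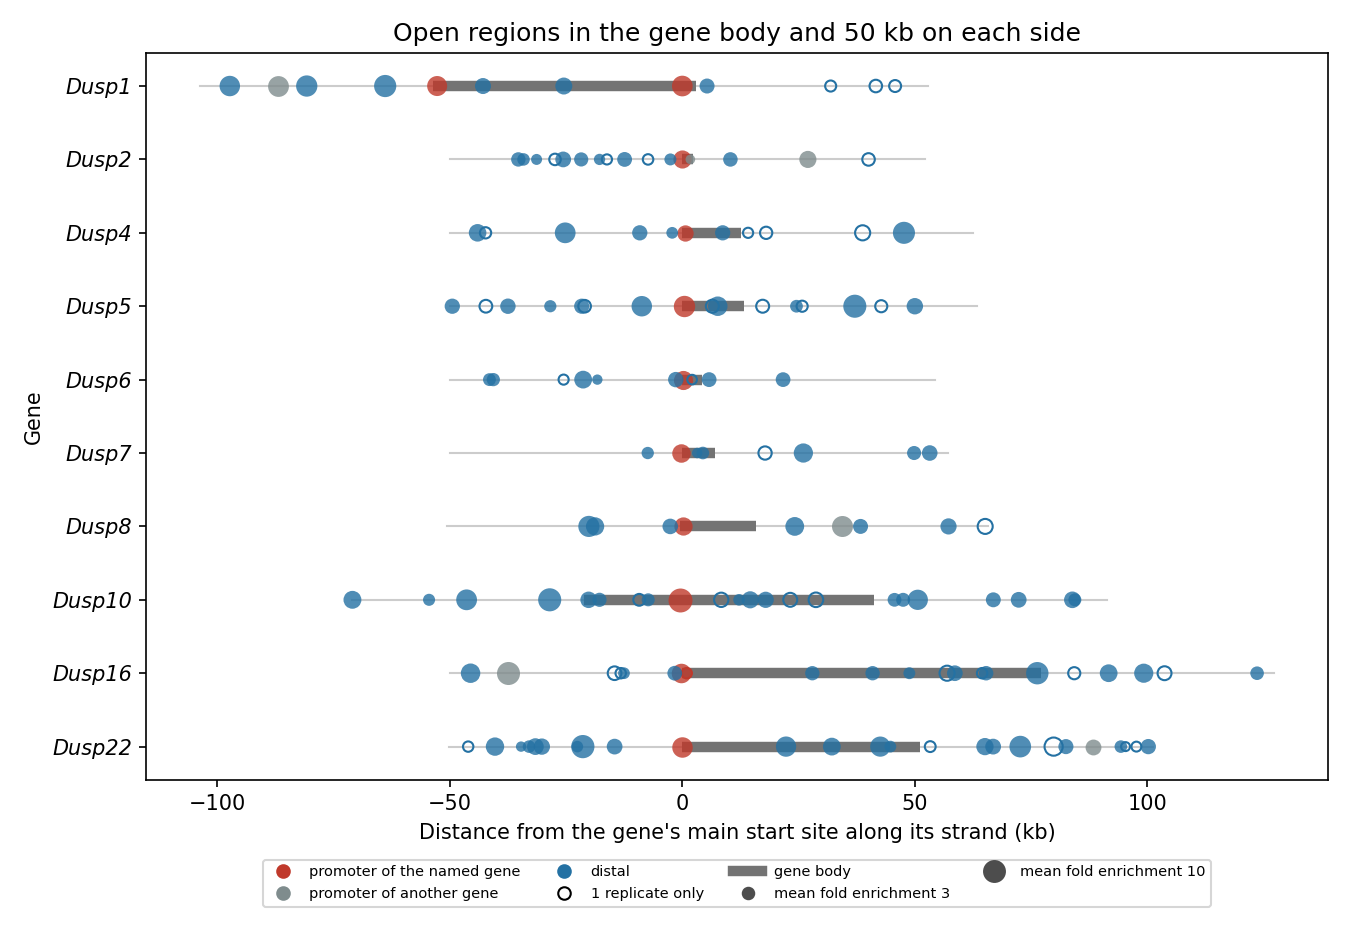
Each row is 1 gene and the horizontal axis is the distance from its main start site along its strand in kb, with the gene as a thick bar and the flanks as a thin line. Points are joined regions, larger with mean fold enrichment, filled when in both replicates and hollow when in 1. Dusp10 and Dusp22 held the most filled distal points, 17 and 18.

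Dusp1, Dusp2, Dusp4 and Dusp5 encode the inducible nuclear phosphatases. Dusp1, which acts on p38, JNK and ERK, had its promoter region on chromosome 17 at 26507545 to 26509453. Its fold enrichments were 9.85 (8.34 to 11.6) and 9.87 (8.51 to 11.4), on summit counts of 149 and 186. The replicates thus nearly coincided. The annotation also gives Dusp1 a long transcript that starts far upstream, beside the start of Ergic1 on the opposite strand. The region there, at 26560413 to 26561967 with 9.61 and 8.86, was centred 938 bp from that start and closer to the Ergic1 start, and its count cannot be divided between them.

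Dusp2, a nuclear phosphatase found mainly in lymphoid and myeloid cells, had a compact promoter region of 962 bp on chromosome 2 at 127335659 to 127336620. Its values were 6.94 (5.98 to 8.01) and 8.21 (7.27 to 9.24), on 185 and 272 counts. Dusp4, which acts on ERK and JNK, had the widest region of the 10 and the lowest folds. That region ran over 2819 bp on chromosome 8 at 34806500 to 34809318 and was centred in exon 1, with 5.46 (4.50 to 6.57) and 6.82 (5.82 to 7.94). Of all open promoters 16.4% had a lower fold than that of Dusp4 in the mean of both replicates. Its counts were not the lowest. They were 111 and 164, against 57 and 64 at Dusp8, 56 and 93 at Dusp16, and 58 and 102 at Dusp22. The remaining genes had higher counts than Dusp4. Dusp5, which is specific for ERK, had 9.28 (7.79 to 11.0) and 11.7 (10.3 to 13.3) at 53528543 to 53530614 on chromosome 19, over the promoter with the touching CArG boxes.

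Dusp6 and Dusp7 encode cytoplasmic phosphatases that act on ERK. The Dusp6 region on chromosome 10 at 99262641 to 99264262 had 8.36 (7.16 to 9.70) and 8.52 (7.45 to 9.70). A second region, at 99261253 to 99262452 and centred at -1.38 kb, had 5.20 and 5.76 and lay directly beside it. Distances are from the main start along the strand of the gene, with upstream positions negative. The Dusp7 region on chromosome 9 at 106367131 to 106369429 spanned 2299 bp and had 7.23 (6.00 to 8.65) and 8.56 (7.32 to 9.95).

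Dusp8, Dusp10 and Dusp16 encode phosphatases that prefer JNK and p38, and in mice Dusp10 is known to restrain cytokine production by T cells. Dusp10 had the strongest promoter of the 10. Its region on chromosome 1 at 184033421 to 184034558 had 12.0 (10.5 to 13.6) and 14.5 (13.0 to 16.1), on 234 and 338 counts, and 79.2% of open promoters were weaker. The opposite gene 1700056E22Rik starts within this region, so the region belongs to a pair of start sites. The comprehensive annotation, but not the basic set, gives Dusp10 another start at 184013302. A separate region open in both replicates was centred 956 bp from it, at 184013628 to 184014889, with 6.26 and 6.25.

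Dusp8, best known from brain and heart, had 7.41 (5.64 to 9.56) and 7.94 (6.14 to 10.1) on chromosome 7 at 142094453 to 142095816, over the promoter with a pair of CRE matches. Dusp16 had 7.57 (5.75 to 9.79) and 10.04 (8.13 to 12.3) on chromosome 6 at 134792229 to 134793336, over 2 of its 3 annotated starts. Near the third, inside the gene, a weak region at 134791393 to 134791914 was found in replicate 2 alone, with 2.49.

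Dusp22 encodes an atypical phosphatase that in mouse T cells acts on the kinase Lck. Its promoter region on chromosome 13 at 30659421 to 30660757 had 8.62 (6.58 to 11.1) and 10.7 (8.74 to 13.0), on 58 and 102 counts. All 10 promoters had the higher fold in replicate 2. The median over all open promoters was also higher there, 10.9 against 9.68. In 10 of 10 the counting intervals of the replicates overlapped, and neither share was computed over all open promoters. Genes next to each other in the order of promoter fold also had overlapping intervals, whereas those of the highest, Dusp10, and the lowest, Dusp4, overlapped in neither replicate.

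**Figure D2:**
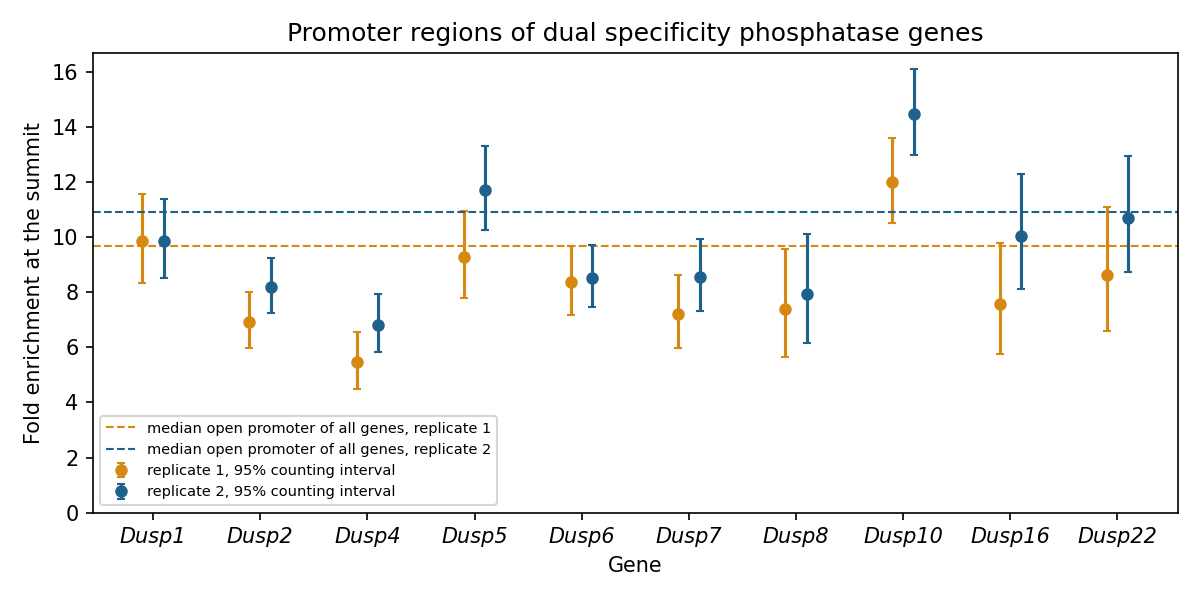
Fold enrichment at the summit (vertical axis, no unit) of the promoter region of each gene, in replicate 1 (orange) and replicate 2 (blue), with 95% counting intervals. Dashed lines are the medians over all open promoters, 9.68 and 10.9; Dusp10 lies above both lines and Dusp4 is lowest.

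The windows were rich in distal regions, those centred more than 1 kb from every annotated protein-coding start. There were 96 distal regions open in both replicates, with a median of 8 per gene, against a median of 2 over all protein-coding genes and 3 over genes with an open promoter. All 10 genes had 6 or more, whereas 82.9% of protein-coding genes had fewer than 6. Dusp22 had 18, Dusp10 had 17 and Dusp16 had 12, and 0.374%, 0.510% and 1.55% of protein-coding genes had more. Dusp2 and Dusp5 had 9 each and Dusp6 had 7, and Dusp1, Dusp4, Dusp7 and Dusp8 had 6 each. Longer genes have longer windows, here between 102.2 kb at Dusp2 and 177.2 kb at Dusp16. Per 100 kb of window Dusp22 had 11.9, Dusp10 10.5 and Dusp2 8.81 distal regions, and Dusp1 had the fewest, 3.83. The long annotated transcript of Dusp1 widens its window, and with it the gene measures 56.5 kb. The 3 distal regions upstream of that transcript are counted only through it, so the 6 of Dusp1 rest on it.

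Of the 96 distal regions 44 lay upstream of the gene, 22 in its body and 30 downstream, and 61 were intergenic, 31 intronic and 1 exonic by their centres. The other 3 lay in the Dusp10 gene before its first basic start. For 63 the nearest protein-coding start was that of the phosphatase gene and for 33 that of a neighbour, and nearness does not say which gene a region serves. The 7 counted to a neighbour at Dusp10 were nearest to 1700056E22Rik, which starts in the Dusp10 promoter region. At Dusp1 the region at -63.8 kb counted to Dusp1 only through the start of the long transcript. All distal regions of Dusp4 and Dusp6 were nearest to the gene itself, whereas at Dusp8 this held for 1 of 6. In strength they were close to distal regions elsewhere. Their median fold was 4.96 in replicate 1 and 5.98 in replicate 2, against 5.50 and 6.29 over 31951 distal regions, and their median width was 597.5 bp against 621 bp.

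**Figure D3:**
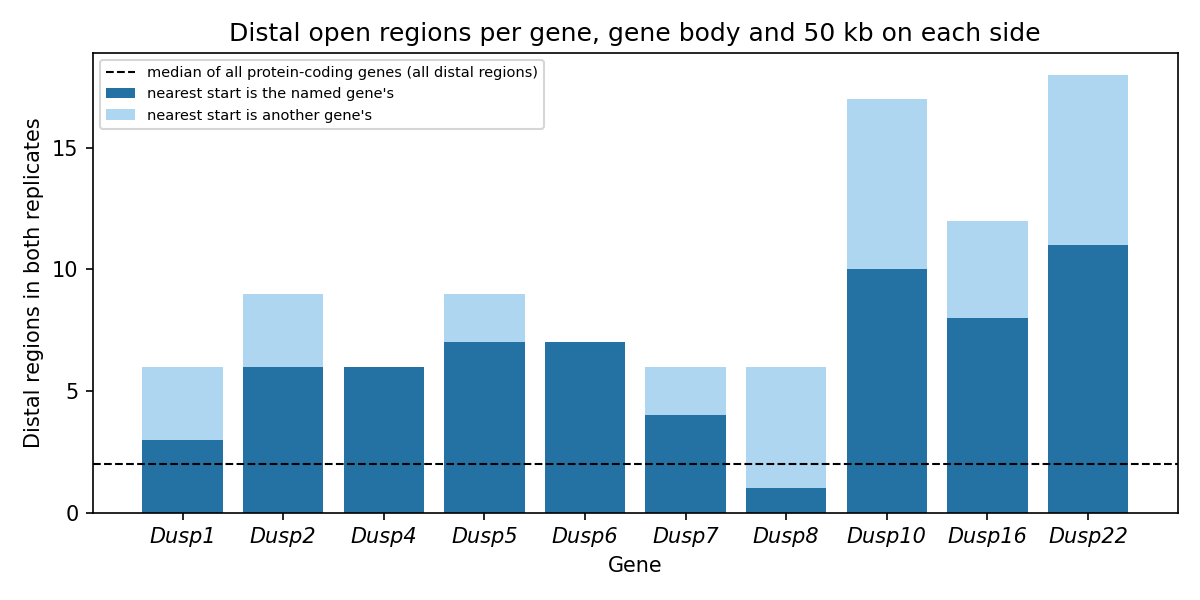
Number of distal regions open in both replicates in the window of each gene (vertical axis). Dark bars count regions nearest to the start of the named gene and light bars those nearest to another gene, 63 and 33 in all; the dashed line is the median of all protein-coding genes, 2.

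For 4 distal regions the 200 bp around the midpoint between the summits of the 2 replicates are shown. They are on the plus strand, read from the RefSeq genome sequence of GRCm38.p6. Dusp22 and Dusp10 held the strongest distal regions of the 10 windows in the mean over replicates, 12.4 and 12.3. That of Dusp5 had the same mean of 12.3. The region of Dusp2 was not the strongest of its window and is shown for its 3 AP-1 matches. Capitals mark matches on either strand to AP-1, ETS, CRE, the E-box and the CArG box, and to words of 3 further factor families. The word searched for RUNX factors was TGTGGT. That for GATA factors, among them the Th2 factor GATA3, was AGATAA. That for STAT factors, which carry cytokine signals, was TTCNNNGAA.

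Dusp22, at -21.4 kb, chr13:30638508-30638707: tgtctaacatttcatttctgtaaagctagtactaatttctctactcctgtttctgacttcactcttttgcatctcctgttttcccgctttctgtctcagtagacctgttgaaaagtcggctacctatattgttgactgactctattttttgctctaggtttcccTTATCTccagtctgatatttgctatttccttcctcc

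Dusp10, at -28.5 kb, chr1:184005709-184005908: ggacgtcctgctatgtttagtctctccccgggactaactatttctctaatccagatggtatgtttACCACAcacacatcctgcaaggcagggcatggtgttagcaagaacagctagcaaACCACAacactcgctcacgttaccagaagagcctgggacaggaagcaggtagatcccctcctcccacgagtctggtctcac

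Dusp5, at 37.1 kb, chr19:53566028-53566227: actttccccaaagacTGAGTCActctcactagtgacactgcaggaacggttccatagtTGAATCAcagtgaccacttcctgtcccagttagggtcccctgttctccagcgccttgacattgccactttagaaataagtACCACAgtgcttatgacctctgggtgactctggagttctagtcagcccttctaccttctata

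Dusp2, at -12.4 kb, chr2:127323689-127323888: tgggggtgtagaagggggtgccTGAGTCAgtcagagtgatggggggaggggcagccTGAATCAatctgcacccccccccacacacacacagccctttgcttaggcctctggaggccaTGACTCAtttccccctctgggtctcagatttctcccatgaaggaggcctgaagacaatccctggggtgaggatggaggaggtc

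Among the inducible nuclear genes, Dusp1 had its 3 strongest distal regions inside Ergic1 intron 1. The first, 26571937 to 26572781 at -63.8 kb, had 9.93 and 12.8. The second, 26588763 to 26589669 at -80.7 kb, had 8.78 and 12.1, and the third, 26605388 to 26606135 at -97.2 kb, had 7.65 and 11.6. All 3 lay more than 50 kb from the main start, in the window only through the long transcript. Each of these held an AP-1 match. In fold the first lay above the Dusp1 promoter in both replicates, with overlapping intervals in each (7.84 to 12.4 and 10.8 to 15.0 at the distal region). In counts it was lower, with 75 and 140 against 149 and 186 at the promoter. Regions nearer the Dusp1 start had lower folds than these 3 regions in both replicates, with 4.13 and 6.24 at 5.34 kb and with 4.51 and 8.77 at -25.4 kb.

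Dusp2 had 8 of its 9 distal regions upstream, in a run between -35.2 and -2.54 kb with no other open promoter in it. None was strong. The highest, at 127310163 to 127310987 and -25.6 kb, had 5.08 and 6.37, and the region with 3 AP-1 matches, at 127322848 to 127324716 and 1869 bp wide, had 4.89 and 5.27. The third lay in intron 5 of Astl at 127346431 to 127346607 with 4.82 and 4.90.

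At Dusp4, 3 distal regions exceeded the promoter in fold in the mean over replicates, but none did in summit count. The promoter had 111 and 164 counts over a background of 19.51 and 23.2, and the background was lower at all 3. One in intron 14 of Tnks, 47.7 kb downstream of the Dusp4 start at 34854683 to 34855226, had 8.75 (6.25 to 11.9) and 13.7 (11.3 to 16.4), on 38 and 116 counts. The second, 34781867 to 34782428 at -25.1 kb, had 10.04 and 9.78, on 49 and 49 counts. The third, 34763014 to 34763610 at -44.0 kb, had 7.95 and 6.27, on 61 and 55 counts, and lay below the promoter fold in replicate 2. In the Dusp5 window the region at 53565818 to 53566609 had 11.0 (8.44 to 14.1) and 13.6 (11.2 to 16.3), above the promoter in fold with overlapping intervals. Its counts of 61 and 114 were below the 135 and 230 of the promoter. Another distal region, 53519994 to 53520843 at -8.69 kb, had 8.53 and 10.8. The only distal region in the Dusp5 body, in intron 2 at 53536014 to 53537490, had 8.39 and 9.13 on 127 and 168 counts.

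At Dusp6, of the cytoplasmic ERK phosphatase genes, no distal region exceeded the promoter, and the highest, 99241183 to 99242705 at -21.3 kb, had 6.89 and 7.69. The region just upstream of the promoter, described above, ranked second, and a region 5.78 kb downstream of the start at 99268559 to 99269471 had 5.07 and 5.08. At Dusp7 a single region stood above the rest, 26.0 kb downstream of the start at 106394395 to 106394959 with 8.15 and 8.89. Near the far edge of the window, toward Rpl29, a region from 106421616 to 106422053 had 5.59 and 5.62, and one from 106418262 to 106418692 had 4.53 and 4.60. Both intronic regions of Dusp7 were weak, with 2.52 and 2.54, and 3.98 and 3.41.

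Among the genes for JNK and p38 phosphatases, Dusp8 had no distal region in its body. Its strongest, 142115009 to 142115649, lay at -20.1 kb and nearer to the start of Gm45618, with 10.2 and 10.4. The second lay between Dusp8 and Mob2, from 142070669 to 142071487, and had 6.59 and 9.67. The third, 142113781 to 142114219 at -18.7 kb, had 7.97 and 7.41. Dusp10 had a broad array on both sides. Its strongest distal region, 184005406 to 184006407 at -28.5 kb, had 12.1 (9.70 to 14.9) and 12.5 (10.3 to 15.1), on 87 and 108 counts. Farther upstream, at 183987747 to 183988346, a region had 9.29 and 10.6, and one 50.6 kb downstream of the start at 184084732 to 184085284 had 7.67 and 11.3.

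The strongest distal region of Dusp16 was the only exonic one of the 96. It lay over the last exon, exon 7, at 134715690 to 134716919, 76.3 kb from the main start, and had 10.8 (9.10 to 12.8) and 12.3 (10.9 to 13.9) on 136 and 254 counts. It lay above the Dusp16 promoter in both replicates, with overlapping intervals in each. In intron 1 of Crebl2 a region at 134837522 to 134838703 had 7.97 and 9.49, and in intron 3 of Borcs5 one at 134693178 to 134693668 had 6.67 and 10.3. The 5 intronic regions within Dusp16 were weaker, between 2.94 and 5.48 in replicate 1 and between 2.94 and 6.53 in replicate 2.

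Dusp22 had the densest window, with 8 distal regions upstream, 4 in the body and 6 downstream, before or inside the transcription factor gene Irf4. The strongest, 30638313 to 30639178 at -21.4 kb, had 12.8 (10.6 to 15.2) and 12.1 (10.3 to 14.2), above the Dusp22 promoter in both replicates with overlapping intervals. The next, at 30732464 to 30733061, had 9.62 and 12.0 but lay nearer to the Irf4 start, 72.7 kb from that of Dusp22. In intron 3 of Dusp22 a region at 30681971 to 30682864 had 9.12 and 9.83. Of the 18 distal regions of this window 11 were nearest to Dusp22 and 7 to Irf4.

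In 94 of the 96 distal regions the counting intervals of the replicates overlapped. These regions were taken because both replicates held them, and the same share over all distal regions was not computed. The exceptions were at -37.5 kb from Dusp5, with 3.53 (2.22 to 5.36) and 7.43 (5.71 to 9.51), and at -40.2 kb from Dusp22, with 4.87 (2.99 to 7.55) and 10.7 (8.01 to 14.0). Both were higher in replicate 2. So were 67 of the 96 (69.8%), against 68.1% of all distal regions, and the ratio of the replicates, 2 over 1, had a median of 1.08 against 1.11. The 9 regions of replicate 1 alone had folds between 2.12 and 3.67, and the 28 of replicate 2 alone between 1.84 and 7.60. The highest of the second kind, 30739697 to 30740169 in the Dusp22 window, was above the median of 5.98 of shared distal regions in that replicate.

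**Figure D4:**
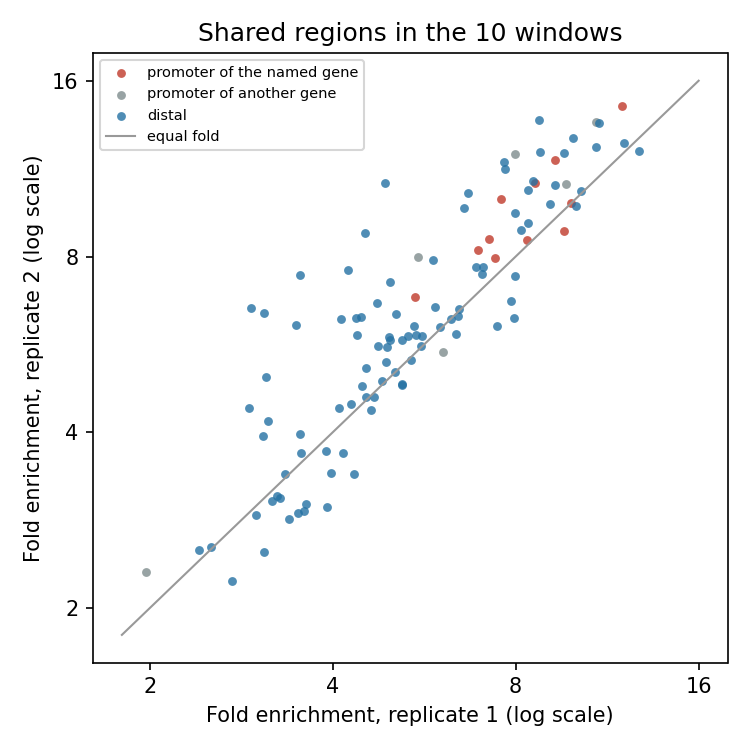
Fold enrichment of each of the 113 shared regions of the 10 windows in replicate 1 (horizontal, log scale) and replicate 2 (vertical, log scale), coloured by kind; the line marks equal values. Most points lie near or above the line, and 67 of 96 distal regions are higher in replicate 2.

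Around the midpoint between the replicate summits, most motifs matched in these distal regions about as often as elsewhere. AP-1 matches were within 100 bp of that midpoint in 30 of 96 distal regions (31.2%), against 27.8% of 31951 distal regions. RUNX matches were in 24.0% against 22.4%, STAT matches in 13.5% against 12.5% and GATA matches in 10.4% against 11.6%. NFAT matches (GGAAA), a short word that can overlap ETS and STAT matches, were in 52.1% against 51.8%. ETS was in 2.08% against 4.60% and CRE in 0 of 96 against 0.407%. The counts varied between genes. AP-1 matches were in 9 of 18 regions at Dusp22, 5 of 12 at Dusp16, 4 of 9 at Dusp5 and 0 of 6 at Dusp4, and RUNX matches in 5 of 9 at Dusp5 and 0 of 12 at Dusp16. These small counts carry no test, and they set no gene apart.

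**Figure D5:**
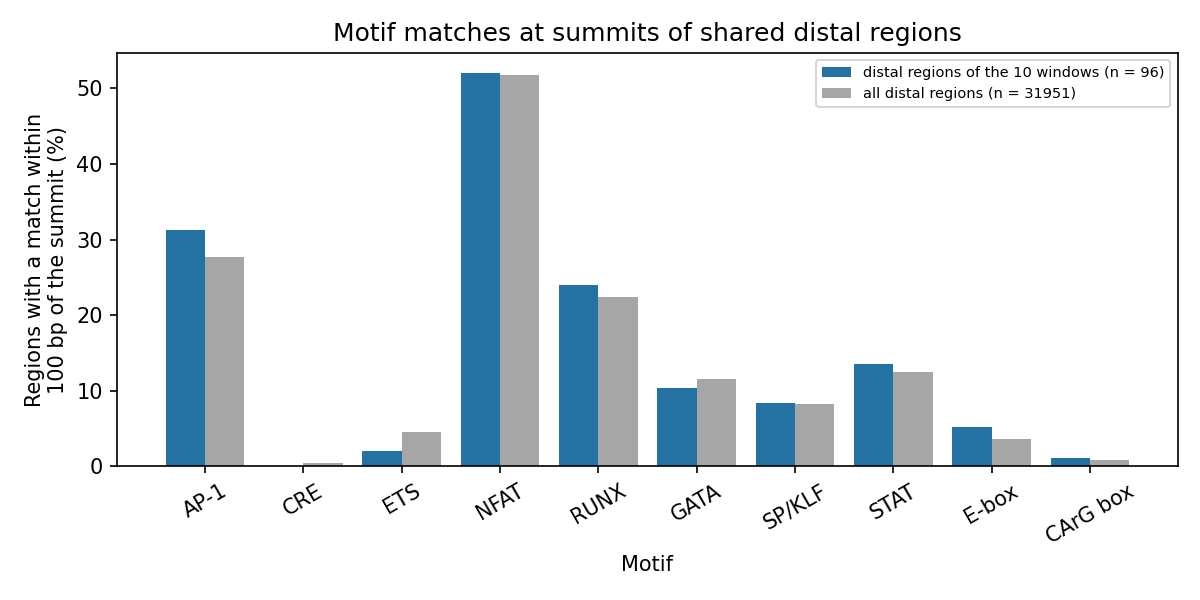
Percent of shared distal regions with a match to each motif, for the 96 regions of the 10 windows (blue) and all 31951 distal regions (grey). Matches are within 100 bp of the midpoint between the summits of the 2 replicates. Most pairs of bars are close, with 31.2% and 27.8% for AP-1, and the ETS bars are 2.08% and 4.60%.

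Other genes, in lists of the MAP kinase pathway and of further dual specificity phosphatases (together the pathway lists), were open almost as generally. Whether each of these further phosphatases acts on MAP kinases was not examined. Of 38 genes, 35 (92.1%) had an open promoter, against 57.3% of all protein-coding genes, and their median number of distal regions was 3. Of 11 other dual specificity phosphatase genes 10 were open and Dusp26 was not. Dusp11 and Dusp12, which had the most distal regions of that list with 5 each, had promoters of 11.4 and 13.2, and 12.3 and 14.0. All 3 genes of tyrosine phosphatases that act on MAP kinases were open, among them Ptpn5 with 7 distal regions and Ptpn7, the haematopoietic member, with 3. The Ptpn7 promoter had 6.13 and 7.09.

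Of 11 MAP kinase genes 10 were open, and Mapk10, which encodes the JNK found mainly in neurons, had neither an open promoter nor a distal region in its window. Mapk6 and Mapk14, the gene of p38α, had the most distal regions, 9 and 8, and Mapk14 had a promoter of 13.7 and 14.7. All 7 MAP kinase kinase genes were open, led in distal regions by the p38 activator gene Map2k6 with 10 and by Map2k2 with 5. Of 6 genes of Sprouty and Spred inhibitors, which restrain the pathway above ERK, 5 were open and Spred3 was not. Spred2 had 12 distal regions, and Spry1 and Spred1 had 6 each. Set beside these lists, the 10 phosphatase genes had more distal regions at the median (8 against 3). The T cell and Th2 marker genes had medians of 8 and 9, so the number was as high at those genes. The marker genes of other cells had a median of 1 and ranged between 0 and 9. The 9 were at Itgam, whose promoter was not open. These comparisons are descriptions, since the lists share libraries and differ in gene length.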

How the data were processed

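ATAC-seq regions of 2 Th2 replicates were used as deposited. Per the file headers, the authors called regions per library from 1 alignment on mm10; no source used here names the aligner, the peak caller or their releases. The deposited fold enrichment (a ratio at the summit), −log10 p-value and −log10 q-value are the authors' own. The deposited score was not used.

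Regions on 21 main chromosomes were joined at 1 bp of overlap with Python 3.11.15, and starts were taken from GENCODE M21 (GRCm38, the build of the files). A region belonged to a window or promoter by its centre. Summit pileups came from a Poisson model with a pseudocount of 1 and returned each deposited p within 0.001 of −log10 p for 122 of 122 and 141 of 141 window regions. Joining, motif search and this recovery were tested on simulated data.

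No test was run: with 1 group, values are descriptions. The genes, lists and motifs were chosen with earlier results of these data known. Of the marker genes listed, 1 is not reported here, for a reason unrelated to its value. Named were all 10 genes, the promoter and 3 strongest distal regions of each, and from each pathway list genes without an open promoter and the 2 with most distal regions, ties included; further regions of a gene and regions of 1 replicate were named after their values were seen. Alternatives covered the threshold, overlap, replicates, promoters, windows and annotation.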

Additional observations from a re-analysis of the deposited data

How the results depend on the processing

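All 10 promoters were open under each of the 8 alternatives run for promoters. The number of distal regions was 96, and fell to 56 when −log10 q had to reach 10, to 52 with 20 kb on each side and to 22 with the gene body alone, which follows from the fewer regions or shorter windows. It was 138 with 100 kb on each side and lay between 107 and 124 with 1 replicate left out. At Dusp5 it was 15 with replicate 2 alone, against 9. Per gene the number ranged between 3 (Dusp6 and Dusp7) and 12 (Dusp22) when −log10 q had to reach 10. With 20 kb on each side it ranged between 3 (Dusp4 and Dusp5) and 10 (Dusp10). The finding of 6 or more at all 10 genes did not hold under these settings, and the counts over all genes were not recomputed. The median promoter fold of 8.62 lay between 7.96 and 9.22 with 1 replicate left out. With the 5′ end of the gene as its only start, the value was 6.26 at Dusp10 and 9.23 at Dusp1, since another start was then read. Between 31 and 36 of the 38 pathway promoters were open. The comprehensive annotation, added after seeing the data, gave 95 distal regions. No paired analysis was possible because there is only 1 group. Distal regions with summit counts near 10 are at the limit of what this depth resolves.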

Other observations

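The windows also held 6 open promoters of neighbouring genes, all given here. Crebl2, next to Dusp16, had 10.8 and 13.6, and Mob2, next to Dusp8, had 9.69 and 10.7 in replicates 1 and 2. Irf4, a transcription factor needed for Th2 cells in mice, had a region of 2386 bp with 6.08 and 5.50. A second start of Ergic1 had 7.97 and 12.0, and Adra2b had 5.52 and 7.99. The weakest, with 1.97 and 2.31, was counted to Astl by the distance of its centre from that start but lay in exon 4 of Dusp2.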
